A study of Mus musculus with 13 samples.

Results

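The matrix metalloproteases (Mmp genes), the secreted proteases of the Adamts family and the tissue inhibitors of metalloproteases (Timp genes) were followed in the bladder, the urethra and the urogenital sinus of the mouse embryo. A gene was taken as a member when a probe set of the array carried a single platform symbol made of Mmp, Adamts or Timp and a number, with or without a final letter. This gave 37 genes with 70 probe sets, of 18193 genes with a named probe set, namely 18 Mmp, 15 Adamts and 4 Timp genes. Each gene was read from its probe set with the highest mean over 13 arrays.

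The study profiled dissected regions of the lower urinary tract at embryonic day 14 on Affymetrix arrays, with 3 arrays of bladder, 3 of urethra and 4 of urogenital sinus, and set beside them 3 arrays of a newborn reference RNA. The embryos were offspring of FVB/N females mated with males that carried SMGA/EGFP, a transgene in which the promoter of the smooth muscle gene Actg2 drives a green fluorescent protein, and their sex was unknown. Bladder and urethra were cut out by the fluorescence and the urogenital sinus by its absence. The region samples were not pooled, and the labels give them Theiler stage 21 (bladder replicate 2, urethra replicates 1 and 2, urogenital sinus replicates 1 and 2) or 22 (all others). The newborn reference is RNA of whole wild-type FVB/N mice at postnatal day 1 (Theiler stage 27), pooled from 4 males and 4 females, so it differs from the regions in age, tissue and transgene at once, and these cannot be told apart. Whether tissue of 1 embryo lies behind arrays of several regions is not said in the labels, so the p-values reflect only how far these samples vary among themselves, and the small number of arrays limits their precision.

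Median intensity ran from 142 to 238 in bladder, from 221 to 378 in urethra, from 259 to 389 in urogenital sinus and from 278 to 455 in the newborn reference, and every bladder array lay under every urogenital sinus array. Arrays of 1 region correlated at 0.938 to 0.974 for bladder, 0.891 to 0.937 for urethra and 0.877 to 0.965 for urogenital sinus, against 0.840 to 0.954 between regions. The uroplakin and Foxa1 probe sets that mark urothelium were all above the filter level (a log2 intensity of 7.39, described below) on every bladder and urogenital sinus array, and 4 of 5 were on every urethra array. All 5 were also above it on every newborn reference array, so passing the level does not set the tract apart. The log2 of their summed intensity was 14.30 to 14.63 in bladder, 13.72 to 15.22 in urethra and 13.49 to 14.41 in urogenital sinus, against 12.04 to 12.22 in the reference. The fluorescent regions carried smooth muscle RNA. The log2 of the summed intensity of 6 smooth muscle genes was 16.08 to 16.41 in bladder and 16.04 to 16.50 in urethra, against 12.48 to 14.75 in urogenital sinus. Desmin (Des) was below the filter level on every bladder array.

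Matrix metalloproteases are zinc enzymes that cut collagens, gelatin and other proteins of the extracellular matrix, and most are made as inactive precursors that another protease must trim. Adamts enzymes are secreted, bind the matrix and cut proteoglycans such as versican and aggrecan or process procollagens. Timp proteins bind the active site of these enzymes and block it, and in growing hollow organs the balance of proteases and inhibitors takes part in the remodelling of the connective tissue under the epithelium.

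The promoters of 3 members are shown. Adamts20 was high in all 3 regions and Mmp13 was at the floor there. Mmp13 belongs to a run of Mmp genes on chromosome 9 that was dim in the regions, and Mmp10, which was called in 0 of 7 comparisons, is shown as another gene of that run. Each line gives the 250 bases before the annotated start, 5′ to 3′ on the gene's strand, from RefSeq promoters of GRCm38.p6: Adamts20 at chr15:94404351-94404600 on the minus strand, Mmp13 at chr9:7272264-7272513 and Mmp10 at chr9:7502092-7502341, both on the plus strand. Capitals mark GC boxes (GGGCGG or CCGCCC) in Adamts20, and the AP-1 motif (TGAGTCA or TGACTCA) and the TATA motif (TATAAA or TTTATA) in the other two.
Adamts20: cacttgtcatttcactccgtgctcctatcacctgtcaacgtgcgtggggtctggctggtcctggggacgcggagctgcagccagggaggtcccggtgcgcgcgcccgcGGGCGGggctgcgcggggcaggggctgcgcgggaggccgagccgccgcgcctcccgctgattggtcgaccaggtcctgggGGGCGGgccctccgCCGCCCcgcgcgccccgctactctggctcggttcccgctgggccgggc
Mmp13: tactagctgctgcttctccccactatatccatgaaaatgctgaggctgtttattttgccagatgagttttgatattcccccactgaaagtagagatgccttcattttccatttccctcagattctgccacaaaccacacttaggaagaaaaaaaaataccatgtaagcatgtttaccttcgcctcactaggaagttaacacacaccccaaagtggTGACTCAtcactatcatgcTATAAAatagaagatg
Mmp10: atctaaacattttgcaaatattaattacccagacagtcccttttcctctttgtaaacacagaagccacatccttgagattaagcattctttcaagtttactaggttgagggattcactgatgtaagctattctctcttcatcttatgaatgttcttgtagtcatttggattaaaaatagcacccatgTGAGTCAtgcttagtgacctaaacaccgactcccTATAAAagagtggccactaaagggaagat

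Adamts20 held GC boxes whose first bases lay 48, 62 and 142 bases before the start, and its 300-base window (250 bases before to 50 after the start) held 41 CpG dinucleotides, against a median of 7 over 32851 windows. The Mmp13 and Mmp10 windows held 1 and 2 CpG. The AP-1 motif began 35 bases before the start in Mmp13 and 63 bases before it in Mmp10, and the TATA motif 16 and 29 bases before it. A window was found for 23 members, and both strands were searched. The AP-1 motif was in 5.2% of all windows and in 7 members, all of them from the run on chromosome 9. The TATA motif was in 13.6% of all windows and in 10 members, 9 of them from that run, and the GC box was in 35.7% of all windows and in 12 members, none of them from that run. These are matches of letters and not measured binding sites.

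The array values have a low end at which they carry little information. Intensities were floored at 50.23 (5.65 on the log2 scale), and a gene was tested when its probe set exceeded an intensity of 167.76 (7.39 on the log2 scale, the filter level) on at least 3 of the 13 arrays. Of 18193 genes, 15006 were tested, with 30 of the 37 members among them (12 Mmp, 14 Adamts and 4 Timp). Adamts19, Mmp12, Mmp19, Mmp1a, Mmp1b, Mmp3 and Mmp8 were not tested. Mmp13 passed only through its 3 newborn reference arrays, and Timp4 reached 3 arrays only with them (2 region arrays exceeded the level). Adamts6 passed only through the 10 region arrays, and Adamts20 reached 3 arrays only with them (1 reference array exceeded the level). So Mmp13 and Adamts6 had to differ between regions and reference, and Timp4 and Adamts20 were admitted by their high groups. Below, a fold against a group that lay wholly under the filter level is given as a bound against that level. A probe set's brightness depends on its sequence, so members are compared between groups and not with each other.

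**Figure D1:**
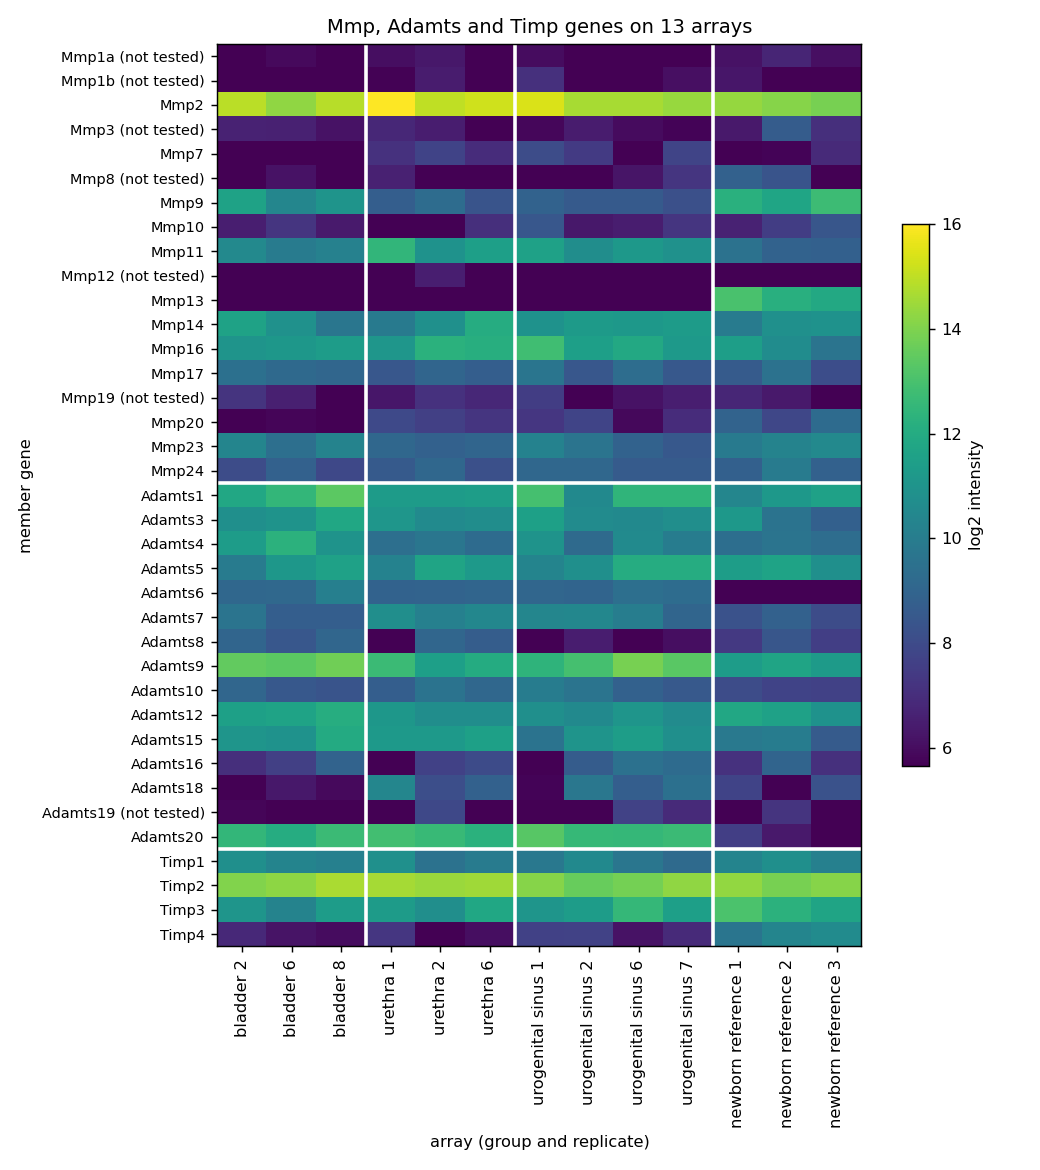
Log2 intensity of the 37 member genes (rows: Mmp, Adamts and Timp genes in blocks split by white lines) on 13 arrays (columns, by group and replicate), coloured from the floor of 5.65 upwards. Adamts20 and Adamts6 are bright on the region arrays and dim on the newborn reference arrays, Mmp13 is at the floor on all 10 region arrays, and most rows of the chromosome 9 run are dark.

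Most members outside that run were measurable in the embryonic tract. Above the filter level on every one of the 10 region arrays were 22 of 37 members, made up of 8 of the 9 Mmp members outside the run, 11 of 15 Adamts members and 3 of 4 Timp members. RefSeq places 10 Mmp genes next to each other on chromosome 9, in the order Mmp13, Mmp12, Mmp1b, Mmp3, Mmp1a, Mmp10, Mmp8, Mmp27, Mmp20 and Mmp7, and 9 of them are members here. They include the collagenases and stromelysins, which cut fibrillar collagen and activate other proteases. Of these 9, 0 were above the filter level on every region array, 6 were above it on no region array, and 3 were above it on some, at most 4 of 10. Mmp7, an epithelial protease also called matrilysin, read 5.65 on all 3 bladder arrays, 7.11, 7.75 and 6.97 on urethra replicates 1, 2 and 6, and 8.04, 7.42, 5.65 and 7.78 on urogenital sinus replicates 1, 2, 6 and 7. Since the mean of every region was below the filter level, no fold was computed, and neither bladder against urethra nor bladder against urogenital sinus passed the test (limma adjusted p = 0.12 and 0.151).

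Against the newborn reference the question was which proteases and inhibitors set the embryonic tract apart from the average of a newborn body. In the bladder, 3 of 30 tested members were higher and 3 lower, against 5.82% and 11.2% of all genes tested (17% in either direction). In the urethra 3 were higher and 3 lower, against 4.36% and 8.86% of all genes (13.2%), and in the urogenital sinus 3 and 3, against 4.62% and 9.18% (13.8%). Groups did not overlap for 14, 13 and 12 members in bladder, urethra and urogenital sinus, against 51.1%, 40.9% and 31.9% of all genes tested. Called the same way in all 3 regions were 4 of 30 members (13.3%), Adamts20, Adamts6, Mmp13 and Timp4, against 1420 of 15006 genes (9.46%). All 4 members were admitted by the filter through the group where they were high. The 3 comparisons share the reference arrays, whose mean entered the fit as 1 sample assumed to vary like the region samples, since they repeat 1 kind of pooled RNA. In bulk tissue, fewer cells of a type and less RNA per cell cannot be told apart in any of these values.

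Of the 14 tested Adamts genes, 3 were called higher in bladder, 2 in urethra and 2 in urogenital sinus, and 0 lower. Of the 4 Timp genes, 1 was called lower in each region, and of the 12 tested Mmp genes 0, 1 and 1 were called higher and 2 lower in each. The median difference over the 14 Adamts genes was 1.19 for bladder, 0.78 for urethra and 1.12 for urogenital sinus on the log2 scale, against -0.27, 0.06 and -0.01 over all genes, with 12, 11 and 12 of them above 0. Over the 12 tested Mmp genes it was -0.33, -0.31 and -0.06, and over the 4 Timp genes -0.73, -0.69 and -0.68. The filter let genes through on 3 arrays, so these medians describe the tested members and not all members.

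Adamts20, a versican-cleaving protease whose loss in mice gives a white belt of skin without pigment cells, was bright in every region. Its log2 intensity was 12.49, 12.07 and 12.70 on bladder replicates 2, 6 and 8, 12.85, 12.64 and 12.28 on urethra replicates 1, 2 and 6, and 13.31, 12.59, 12.56 and 12.71 on urogenital sinus replicates 1, 2, 6 and 7, against 7.56, 6.35 and 5.65 on newborn reference replicates 1, 2 and 3. All 10 region arrays lay far above all 3 reference arrays, and only reference replicate 1 exceeded the filter level. On the linear scale the reference read 189, 81.8 and 41.2, while the regions ran between 4299 (bladder replicate 6) and 10137 (urogenital sinus replicate 1). The mean was 12.42 ± 0.32 in bladder, 12.59 ± 0.29 in urethra and 12.79 ± 0.35 in urogenital sinus (SD, n = 3, 3 and 4), against 6.52 ± 0.97 over the 3 arrays of the reference. The difference was 5.90 for bladder (SE 0.40, 95% interval 5.01 to 6.79, limma adjusted p = 5.42e-06). It was 6.07 for urethra (SE 0.40, 5.18 to 6.96, limma adjusted p = 4.71e-06) and 6.27 for urogenital sinus (SE 0.38, 5.41 to 7.13, limma adjusted p = 2.71e-06). These differences include a floored reference array. The reference arrays spread more (SD 0.97) than the arrays of any region, while the fit assumes the same spread, so the SE and intervals may be too narrow. With each reference array taken at no less than the filter level, the gene was at least 31.4-fold higher in bladder, 35.3-fold in urethra and 40.6-fold in urogenital sinus. The gene has 1 probe set, and it kept its call in each region under all 24 alternatives run.

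No difference between the regions in Adamts20 passed the test. Ordered by mean, urogenital sinus stood above urethra and urethra above bladder, but neighbours overlapped. Bladder minus urethra was -0.17 (SE 0.28, 95% interval -0.78 to 0.45, limma adjusted p = 0.731), urethra minus urogenital sinus -0.20 (SE 0.26, -0.78 to 0.37, limma adjusted p = 0.823) and bladder minus urogenital sinus -0.37 (SE 0.26, -0.95 to 0.21, limma adjusted p = 0.475). With each array centred on its median, bladder minus urethra turned to 0.30 and bladder minus urogenital sinus to 0.22, so the direction between regions depends on the scaling. With the title format as a block it was -1.51 for bladder minus urethra and 1.16 for urethra minus urogenital sinus, not called either. Outside the urethra only newborn reference replicate 3 has the urethra's format. Both values therefore rest on that array, which is at the floor of 5.65 for Adamts20. Over the 10 region arrays the gene spanned 1.24 log2 units, with an SD of 0.33. Since loss of the gene leaves skin without pigment cells, markers of pigment cell precursors were read beside it. The log2 of the summed intensity of 6 melanoblast genes was 12.13 to 12.59 in bladder, 11.41 to 12.16 in urethra and 11.76 to 12.57 in urogenital sinus, against 13.01 to 13.70 in the newborn reference. Dct, Tyrp1 and Tyr, which make pigment, were below the filter level on every bladder and urethra array, as was Tyrp1 on every urogenital sinus array. Kit, a receptor of melanoblasts that other cell types also carry, went the other way, with 11.77, 12.08 and 12.36 in bladder, 11.56, 10.79 and 11.39 in urethra and 12.06, 11.33, 11.27 and 11.05 in urogenital sinus, against 10.26, 9.57 and 10.05 in the reference. It was called higher in bladder (2.11, SE 0.46, limma adjusted p = 0.012), where the other 5 genes of the list were called lower. Kit was the brightest of the 6 genes on every region array, so it weighs most in their sums there. These markers do not show which cells made the Adamts20 RNA, and that was not tested.

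**Figure D2:**
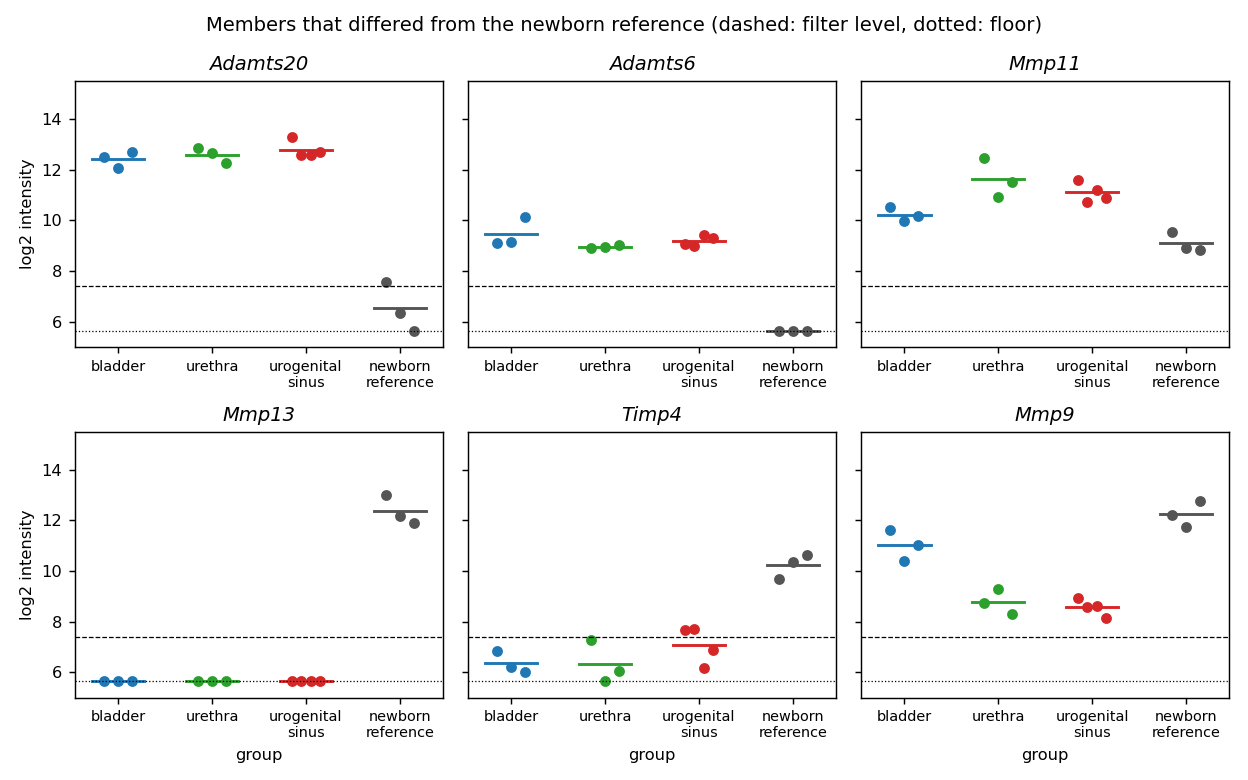
Log2 intensity (vertical axis) of 6 members on each array (points) in 4 groups, with group means as bars, the filter level of 7.39 dashed and the floor of 5.65 dotted. Every region array lies above the newborn reference for Adamts20, Adamts6 and Mmp11 and below it for Mmp13 and Timp4, while for Mmp9 the bladder arrays stand between the other regions and the reference.

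Adamts6, a protease whose loss in mice causes heart defects, was the other member of its family called in all 3 regions. It read 9.09, 9.14 and 10.12 on bladder replicates 2, 6 and 8, 8.89, 8.95 and 9.04 on urethra replicates 1, 2 and 6, and 9.05, 8.99, 9.41 and 9.31 on urogenital sinus replicates 1, 2, 6 and 7, against the floor of 5.65 on all 3 newborn reference arrays, where the raw intensities were 8.92, 14.7 and 18.7. No region array came near the reference. It was at least 4.17-fold higher in bladder, 2.97-fold in urethra and 3.48-fold in urogenital sinus (limma adjusted p = 0.000578, 0.00155 and 0.000772). A further probe set of the gene showed only 0.53, 0.43 and 1.29, and with the mean of both sets the urethra call was lost (difference 1.87, limma adjusted p = 0.0844).

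Adamts9, which cuts versican and aggrecan, was called in bladder. It read 13.51, 13.38 and 13.75 on bladder replicates 2, 6 and 8, against 11.37, 11.68 and 11.30 on the newborn reference, with no overlap. The mean of 13.54 ± 0.19 in bladder (SD, n = 3) against 11.45 ± 0.20 over the 3 arrays of the reference gave 2.09 (SE 0.57, limma adjusted p = 0.0328), or 4.27-fold. The call was lost without bladder replicate 2, 6 or 8 (limma adjusted p = 0.064, 0.0612 and 0.0774) and with the mean of its 3 probe sets (0.49, limma adjusted p = 0.37) while the other sets taken singly differed by 0.33 and -0.95. In urogenital sinus it differed by 1.69 (SE 0.55) and in urethra by 0.62 (SE 0.57), neither past the test (limma adjusted p = 0.0756 and 0.569). Adamts15, another versican-cleaving enzyme, lay without overlap above the reference in bladder (1.84, SE 0.65) and urethra (1.85, SE 0.65) and did not pass the test (limma adjusted p = 0.0829 and 0.0973). The same holds for Adamts7 in urethra, with a difference of 2.07 (SE 0.63, limma adjusted p = 0.0583).

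Mmp13, a collagenase of cartilage and bone, had the largest lower value among the tested members. All 10 region arrays were at the floor, with raw intensities of 0.89 to 38.4, against 13.01, 12.18 and 11.89 on newborn reference replicates 1, 2 and 3 (8271, 4632 and 3792 on the linear scale). It was at least 31.3-fold lower in each region (limma adjusted p = 1.06e-07 for bladder, 1.06e-07 for urethra and 7.74e-08 for urogenital sinus). Since the filter admitted the gene only through the reference, its calls add nothing to that description, and with at least 6 arrays required above the filter level it was not tested. Skeletal marker genes were read beside it, and their summed intensities were lower in the regions than in the reference. The log2 summed intensity of 4 bone and osteoclast genes was 11.53 to 12.12 in bladder, 10.49 to 10.81 in urethra and 9.91 to 10.45 in urogenital sinus, against 14.55 to 15.08 in the reference, and Ibsp, a bone matrix gene, was below the filter level on every region array. Cartilage genes summed to 10.29 to 10.59, 11.30 to 12.26 and 12.02 to 12.62 in the same regions, against 14.58 to 14.84. Sox9 of the cartilage list did not follow and overlapped the reference in every region. It read 8.25, 8.85 and 8.32 in bladder, 9.42, 9.39 and 10.16 in urethra and 9.62, 9.18, 10.76 and 11.35 in urogenital sinus, against 8.57, 8.88 and 9.61. The part of bone and cartilage cells in the Mmp13 difference was not tested.

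Timp4, an inhibitor best known from heart, was dim in the tract. It read 6.83, 6.21 and 6.01 on bladder replicates 2, 6 and 8, 7.27, 5.65 and 6.05 on urethra replicates 1, 2 and 6, and 7.65, 7.70, 6.15 and 6.87 on urogenital sinus replicates 1, 2, 6 and 7, against 9.67, 10.34 and 10.64 on the newborn reference. The highest region array stayed below the lowest reference array. It was at least 7.08-fold lower in bladder and in urethra (limma adjusted p = 0.00605 and 0.00676) and at least 6.42-fold lower in urogenital sinus, where 2 of 4 arrays exceeded the filter level (limma adjusted p = 0.017). Its other probe set differed by -1.80, -1.08 and -1.83, and with the mean of both sets the calls in urethra and urogenital sinus were lost (limma adjusted p = 0.0813 and 0.0711). Timp1, Timp2 and Timp3, which block Mmp enzymes in the tissue and, for Timp3, several Adamts enzymes too, were not called in any region. Timp3 differed by -1.45 (SE 0.63) in bladder, without overlap (limma adjusted p = 0.148). Its other probe sets differed there by -1.28, -2.05 and -2.12. Bladder minus urogenital sinus was -0.72 with the set used and -1.14, -1.85 and -1.91 with the others. With array weights Timp3 was called in bladder against the reference and against urogenital sinus.

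Mmp11, a stromelysin that furin activates before secretion, was higher in urethra and urogenital sinus. It read 10.54, 9.96 and 10.19 on bladder replicates 2, 6 and 8, 12.45, 10.94 and 11.50 on urethra replicates 1, 2 and 6, and 11.59, 10.74, 11.18 and 10.90 on urogenital sinus replicates 1, 2, 6 and 7, against 9.54, 8.89 and 8.83 on the newborn reference. All region arrays lay above all reference arrays, the bladder ones by the least. The difference was 2.55 in urethra (SE 0.56, limma adjusted p = 0.0146), or 5.84-fold, and 2.01 in urogenital sinus (SE 0.54, limma adjusted p = 0.0357), or 4.04-fold. In bladder it was 1.14 (SE 0.56, limma adjusted p = 0.198). The urogenital sinus call was lost without bladder replicate 2, 6 or 8 (limma adjusted p = 0.0506, 0.0538 and 0.0538), urethra replicate 6 (0.0544) or urogenital sinus replicate 6 or 7 (0.0713 and 0.0504), and with arrays centred on their medians (0.0681). Mmp20, the enamel protease enamelysin, read 5.65, 5.81 and 5.65 in bladder, against 8.93, 7.85 and 9.28 on the reference, at least 2.46-fold lower (limma adjusted p = 0.00953). That call was lost with arrays centred on their medians (limma adjusted p = 0.0695).

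**Figure D3:**
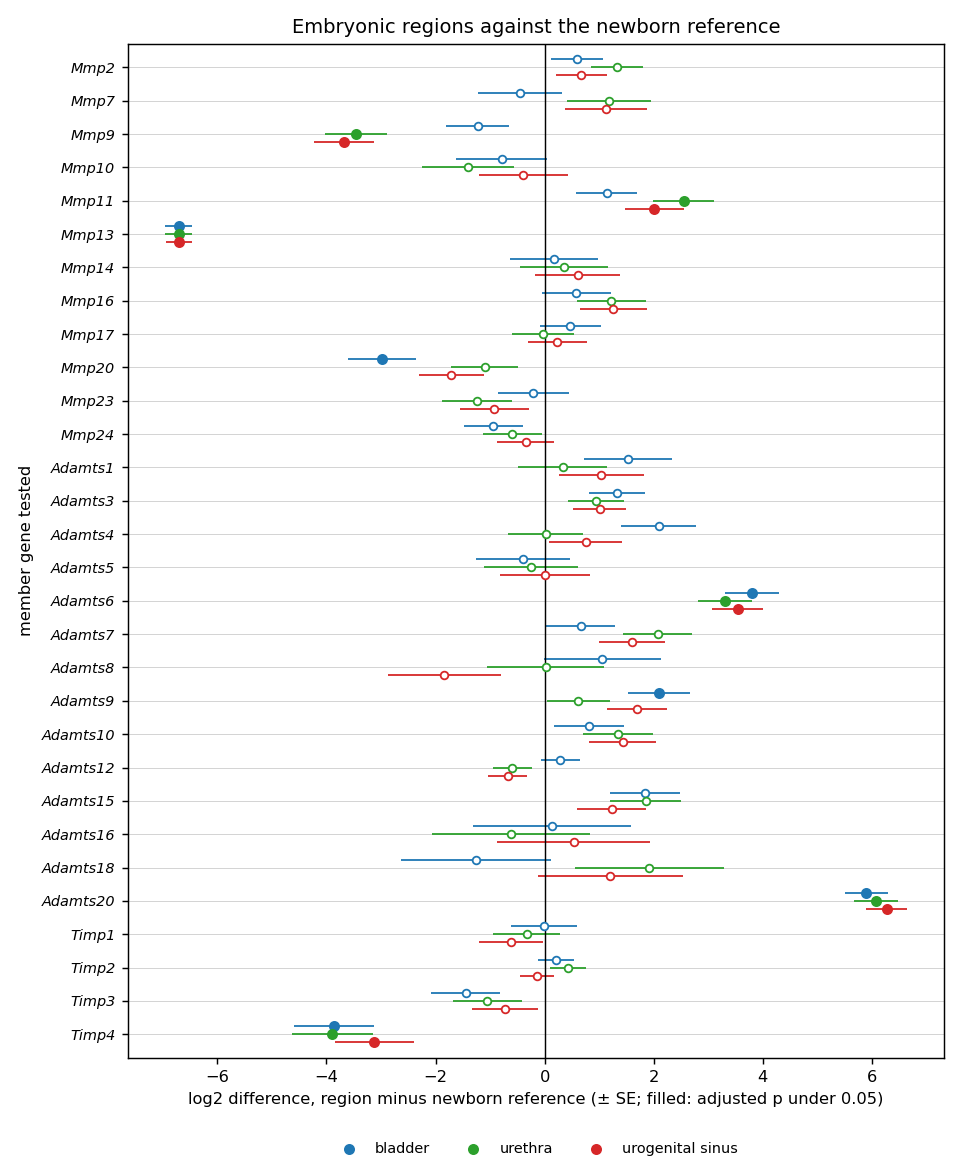
Log2 difference from the newborn reference (horizontal axis, region minus reference, bars ± SE) for the 30 tested members in bladder, urethra and urogenital sinus, with filled points where the limma adjusted p was under 0.05. Adamts20 lies at 5.90 to 6.27 and Mmp13 at -6.71, a value set by the floor, apart from the other members, and Timp1 and Timp2 lie near 0.

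The 3 Mmp or Timp probe sets with the highest mean over the 10 region arrays gave no call in the reported fits. Mmp2, a gelatinase, averaged 14.70 ± 0.36 in bladder, 15.44 ± 0.55 in urethra and 14.78 ± 0.43 in urogenital sinus (SD, n = 3, 3 and 4), against 14.11 ± 0.24 over the 3 arrays of the reference. Timp2, which joins membrane-bound Mmp14 in activating Mmp2, averaged 14.32 ± 0.32, 14.53 ± 0.08 and 13.96 ± 0.31 in the same regions, against 14.11 ± 0.24. Mmp16, a membrane-bound Mmp, averaged 11.17 ± 0.20, 11.81 ± 0.65 and 11.86 ± 0.72, against 10.60 ± 0.93. Mmp2 spanned 1.77 and Mmp16 1.84 log2 units over the region arrays. None of them passed the test in any of the 7 comparisons, but with array weights, and with the title format as a block, Mmp2 and Mmp16 were called in urethra against the reference. The block fit also enters the 3 reference arrays singly. For Mmp2 the difference from the reference was 0.59 (SE 0.48) in bladder, 1.33 (SE 0.48) in urethra and 0.67 (SE 0.47) in urogenital sinus (limma adjusted p = 0.444, 0.109 and 0.432). For Timp2 it was 0.21 (SE 0.33), 0.42 (SE 0.33) and -0.14 (SE 0.32), and for Mmp16 0.58 (SE 0.63), 1.22 (SE 0.63) and 1.26 (SE 0.61). Another Mmp16 probe set differed by 3.98, 2.68 and 3.92, so the sets of this gene disagreed in size. Mmp14 differed from the reference by 0.17 (SE 0.81), 0.35 (SE 0.81) and 0.61 (SE 0.78).

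Between the regions the study asked how bladder, urethra and urogenital sinus differ at the same age, and the members differed in few places. Bladder against urogenital sinus gave 1 higher and 0 lower of 30 tested members, against 0.813% and 1.71% of all genes (2.53% in either direction). Bladder against urethra gave 2 higher and 1 lower, against 1.71% and 2.61% of all genes (4.32%). The balance over all genes depends on the scaling. With arrays centred on their medians, 216 genes were higher and 88 lower in bladder than in urogenital sinus, against 122 and 257 with the deposited scaling, and 238 higher and 90 lower in bladder than in urethra, against 256 and 392. For bladder against the newborn reference centring gave 1315 and 960, against 874 and 1678. The members called with centring were 3 higher and 0 lower, 2 and 0, and 4 and 2 in these comparisons. Urethra against urogenital sinus gave 0 higher and 0 lower by limma, against 0.00666% of all genes called higher and 0.00666% lower (0.0133%). There, 3 of 30 members had an unadjusted limma p under 0.05, against 1552 of 15006 genes. Groups did not overlap for 5, 14 and 1 members in these comparisons, against 17.9%, 34.5% and 8.2% of all genes. The median difference over the 30 members was -0.23, -0.01 and -0.08, against -0.19, -0.25 and 0.05 over all genes. Leaving out 1 array moved these counts and those of all genes. The latter ran from 97 to 1290 for bladder against urethra and from 46 to 645 for bladder against urogenital sinus. For bladder against urethra the count of members was 0 without bladder replicate 2 or 8 or urethra replicate 1 or 6, 1 without bladder replicate 6, urethra replicate 2 or urogenital sinus replicate 7, and 5 without urogenital sinus replicate 1. For bladder against urogenital sinus it was 0 without bladder replicate 2, and 2 without urethra replicate 1 or urogenital sinus replicate 1 or 6.

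Mmp9, a gelatinase made by macrophages, neutrophils and osteoclasts, separated the bladder from both other regions. It read 11.61, 10.39 and 11.02 on bladder replicates 2, 6 and 8, 8.73, 9.30 and 8.32 on urethra replicates 1, 2 and 6, and 8.92, 8.59, 8.60 and 8.16 on urogenital sinus replicates 1, 2, 6 and 7, against 12.21, 11.75 and 12.76 on the newborn reference. The lowest bladder array lay above the highest array of the other regions. The mean was 11.01 ± 0.61 in bladder (SD, n = 3), against 8.78 ± 0.49 in urethra (n = 3) and 8.57 ± 0.31 in urogenital sinus (n = 4). Bladder exceeded urogenital sinus by 2.44 (SE 0.38, limma adjusted p = 0.015), or 5.43-fold, and urethra by 2.23 (SE 0.41, limma adjusted p = 0.0209), or 4.68-fold. A further Mmp9 probe set gave 3.76 and 2.95. Without bladder replicate 2, the call against urogenital sinus did not hold (difference 2.14, limma adjusted p = 0.0843). With the replicate number as a block, neither the call against urogenital sinus nor that against urethra held (limma adjusted p = 0.0829 and 0.0763), and with the title format as a block that against urethra did not (0.119). The call against urethra was lost without bladder replicate 2 or 8 (limma adjusted p = 0.0791 and 0.0715) and without urethra replicate 1 or 6 (0.0656 and 0.0595).

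Against the newborn reference Mmp9 was lower in urethra (difference -3.46, SE 0.57, limma adjusted p = 0.00297) and in urogenital sinus (difference -3.67, SE 0.55, limma adjusted p = 0.00151), or 11-fold and 12.8-fold. In bladder the difference was -1.23 (SE 0.57, limma adjusted p = 0.171). The macrophage and osteoclast gene sets moved unevenly beside it. Mrc1, a receptor of tissue macrophages, read 12.06, 12.27 and 12.66 in bladder, 9.74, 11.02 and 9.92 in urethra and 11.63, 10.25, 10.77 and 10.19 in urogenital sinus, and passed the test between bladder and urethra (2.10, SE 0.45, limma adjusted p = 0.0336) but not between bladder and urogenital sinus (1.62, SE 0.42, limma adjusted p = 0.0834). Ctsk, the collagen-cutting protease of osteoclasts, was higher in bladder than in urogenital sinus (1.98, SE 0.43, limma adjusted p = 0.0442), and its difference from urethra was 1.82 (SE 0.46, limma adjusted p = 0.0557). Csf1r, Adgre1, Cd68, Lyz2 and Ptprc were not called between regions, nor were Acp5, Sp7 and Ibsp, the other genes of the bone and osteoclast list. Acp5 read 9.58, 8.48 and 8.84 in bladder, 9.47, 7.80 and 7.96 in urethra and 8.45, 8.31, 7.74 and 7.63 in urogenital sinus, so bladder and urethra overlapped. The 6 macrophage genes summed to 13.18 to 13.59 in bladder, 12.61 to 13.36 in urethra and 12.10 to 13.79 in urogenital sinus, against 15.37 to 15.72 in the reference. All 6 neutrophil genes were below the filter level on every bladder array, and summed to 8.47 to 8.84 there, 8.88 to 9.62 in urethra and 8.54 to 10.36 in urogenital sinus, against 15.17 to 15.97 in the reference. The part of macrophages and osteoclast-type cells in the Mmp9 differences was not tested.

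**Figure D4:**
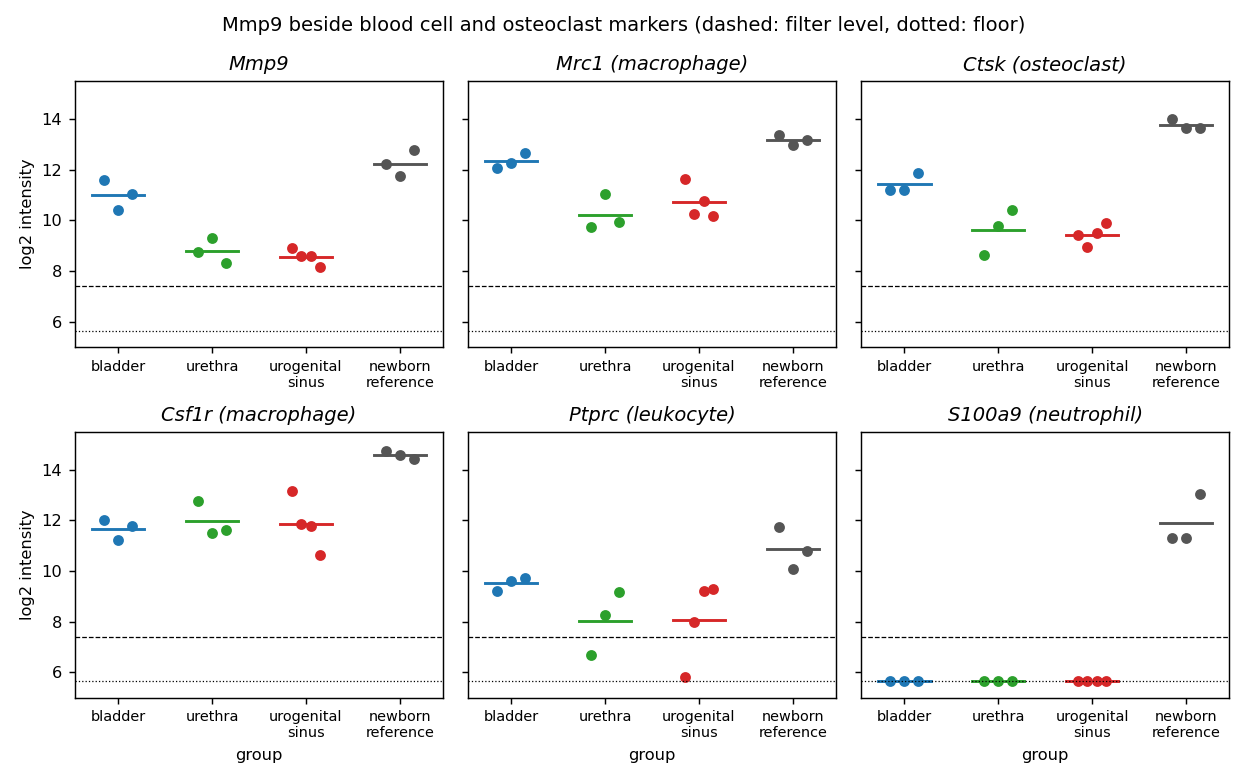
Log2 intensity (vertical axis) of Mmp9 and 5 markers of blood-derived cells and osteoclasts on each array (points) in 4 groups, with means as bars, the filter level of 7.39 dashed and the floor of 5.65 dotted. Mrc1 and Ctsk lie higher on every bladder array than on any urethra or urogenital sinus array, as Mmp9 does. Csf1r does not separate the regions, and S100a9 is at the floor on all 10 region arrays.

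The other calls between regions were Adamts4 and Mmp20, both in bladder against urethra and both close to the threshold. Adamts4, an aggrecan-cutting protease, read 11.38, 12.30 and 10.95 in bladder, 9.45, 9.71 and 9.27 in urethra and 9.22 to 10.98 in urogenital sinus, and the bladder and urethra arrays did not overlap. The mean of 11.54 ± 0.69 in bladder against 9.48 ± 0.22 in urethra (SD, n = 3 each) gave 2.07 (SE 0.49, limma adjusted p = 0.0469), or 4.19-fold. Its other probe set gave 0.73, and 14 of 21 alternatives ended the call, with adjusted p up to 0.419. Theiler stage as a covariate was among them, and with it Mmp20 and Mmp9 kept their calls in bladder against urethra. Others were leaving out bladder replicates 2, 6 and 8 singly (limma adjusted p = 0.109, 0.178 and 0.0748), urethra replicates 1, 2 and 6 (0.127, 0.101 and 0.0961) and urogenital sinus replicates 6 and 7 (0.0693 and 0.0568). Mmp20 read 7.92, 7.60 and 7.25 in urethra, against which all bladder arrays were below the filter level. It was at least 1.15-fold lower in bladder (limma adjusted p = 0.0449). That call also ended in 14 of 21 alternatives, with adjusted p up to 0.716, among them leaving out bladder replicates 2, 6 and 8 (limma adjusted p = 0.118, 0.139 and 0.126), urethra replicates 1, 2 and 6 (0.136, 0.111 and 0.0662) and urogenital sinus replicate 7 (0.0568).

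Several other members kept bladder apart from a neighbour without overlap and did not pass the test. Adamts8 read 9.02, 8.47 and 9.05 in bladder, 5.65, 9.05 and 8.72 in urethra and 5.65, 6.46, 5.65 and 6.05 in urogenital sinus. All urogenital sinus arrays lay under the filter level, and the bladder mean was at least 2.74-fold above them without passing the test (limma adjusted p = 0.0665), while urethra replicate 1 stood apart from the other urethra arrays. Adamts12, which cuts cartilage oligomeric matrix protein, read 11.52, 11.64 and 12.08 in bladder, 11.14, 10.72 and 10.72 in urethra and 10.81, 10.58, 11.03 and 10.64 in urogenital sinus. It differed by 0.98 (SE 0.24, limma adjusted p = 0.064) between bladder and urogenital sinus and by 0.88 (SE 0.25, limma adjusted p = 0.0821) between bladder and urethra. Adamts9 differed by 1.48 (SE 0.40, limma adjusted p = 0.0712) between bladder and urethra, and Mmp11 by -1.40 (SE 0.39, limma adjusted p = 0.0765).

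Adamts18 had the widest spread, at 5.65, 6.33 and 5.92 in bladder, 10.41, 8.14 and 8.86 in urethra and 5.74, 9.74, 8.75 and 9.46 in urogenital sinus. All bladder arrays lay under the filter level, and of the other region arrays only urogenital sinus replicate 1 did. The means in bladder were at least 3.36-fold below urethra and 2.05-fold below urogenital sinus, and neither comparison passed the test (limma adjusted p = 0.0953 and 0.205). Between urethra and urogenital sinus the member without overlap was Timp2, with 14.59, 14.44 and 14.54 in urethra against 14.13, 13.61, 13.82 and 14.29 in urogenital sinus, a difference of 0.56 (SE 0.22, limma adjusted p = 0.435).

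**Figure D5:**
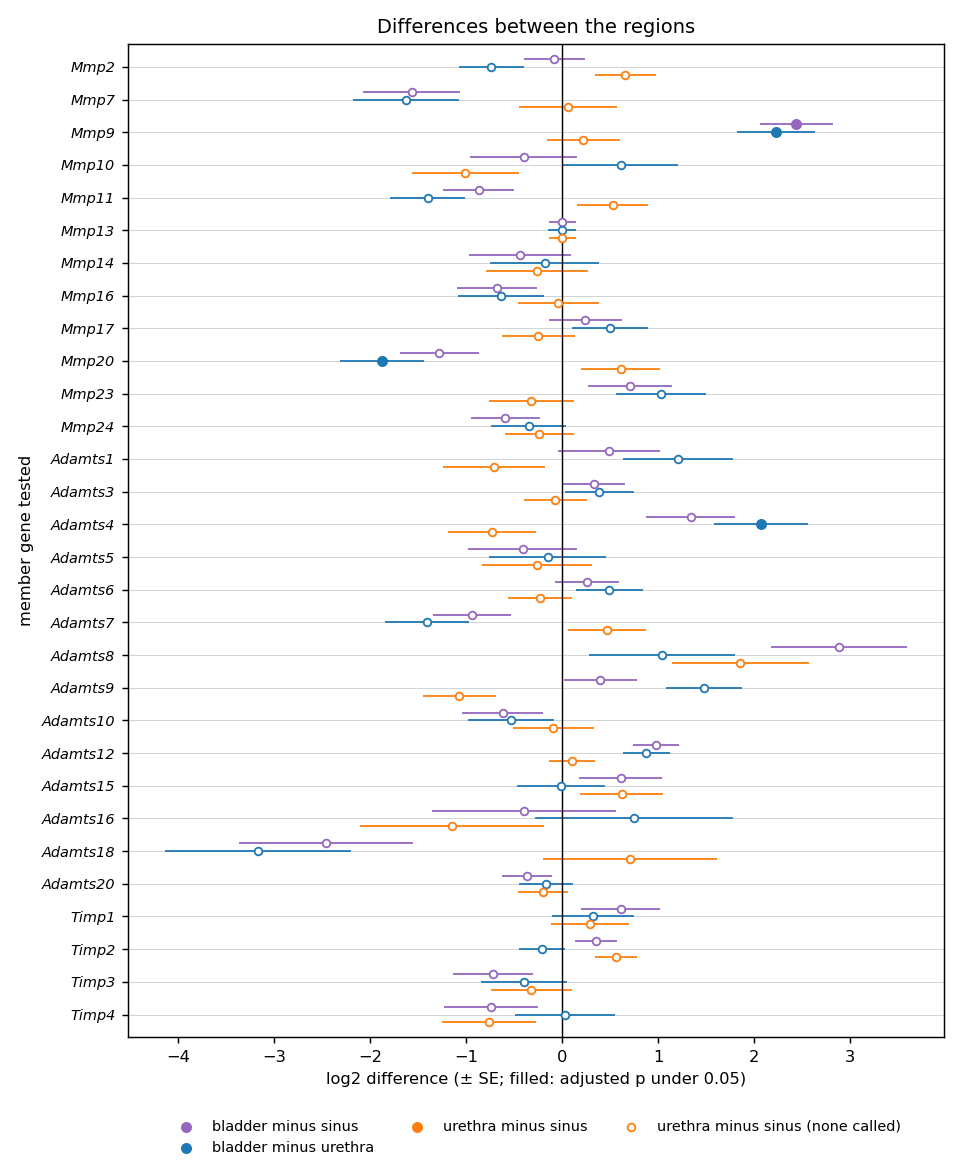
Log2 difference between regions (horizontal axis, bars ± SE) for the 30 tested members, as bladder minus urogenital sinus, bladder minus urethra and urethra minus urogenital sinus, with filled points where the limma adjusted p was under 0.05. Mmp9 is filled on the right for both bladder contrasts, Adamts4 on the right and Mmp20 on the left for bladder minus urethra, and no point is filled for urethra minus urogenital sinus.

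The regions held embryos of both Theiler stages, which allowed stage 22 to be set against stage 21 with region in the model. By limma 0 of 30 members were called, with 6 at an unadjusted p under 0.05, against 0% of all 15006 genes called and 3830 at that unadjusted p. The stages overlapped for every member, against 5.74% of all genes without overlap. The smallest p among members was that of Adamts5, an aggrecan- and versican-cutting protease, with 11.60 ± 0.44 at stage 22 and 10.60 ± 0.69 at stage 21 (SD, n = 5 each), a difference of 1.11 (SE 0.34, limma adjusted p = 0.104). Adamts16 differed by 1.70 (SE 0.65, limma adjusted p = 0.151). For Adamts20 the difference was -0.30 (SE 0.20, 95% interval -0.75 to 0.15, limma adjusted p = 0.375). A test of whether stage acted differently in the regions called 0 genes by limma, with 1 member at an unadjusted p under 0.05.

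Genes that work with these proteases were read from lists of their relatives, activators and substrates. Among 6 tested Adamts-like genes, which resemble Adamts proteins and lack the protease domain, none was called between regions. Adamtsl1 was higher in bladder than in the newborn reference (1.74, SE 0.49, limma adjusted p = 0.036), and Adamtsl5 was lower in bladder (-2.64, SE 0.62, limma adjusted p = 0.0172) and urogenital sinus (-2.06, SE 0.60, limma adjusted p = 0.0478). Of all genes, 17% were called in bladder and 13.8% in urogenital sinus against the reference. Of 10 genes of the membrane-bound Adam family, Adam12 was higher in bladder than in urethra (2.72, SE 0.43, limma adjusted p = 0.0123) and Adam19 was higher in bladder than in the reference (1.96, SE 0.53, limma adjusted p = 0.0311). The other 8 genes of that list were called in neither comparison, in which 4.32% and 17% of all genes were called.

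Of 18 tested activators and other inhibitors, 1 was higher and 4 lower in bladder than in the reference, 1 and 4 in urethra, and 1 and 3 in urogenital sinus. Of all genes, 5.82% were higher and 11.2% lower in bladder, 4.36% and 8.86% in urethra, and 4.62% and 9.18% in urogenital sinus. The median differences were -0.71, -0.19 and -0.10, against -0.27, 0.06 and -0.01 over all genes. The higher one was in each case Reck, a membrane-anchored inhibitor of Mmp enzymes, with 1.78 (SE 0.33) in bladder, 1.18 (SE 0.33) in urethra and 1.29 (SE 0.32) in urogenital sinus (limma adjusted p = 0.00555, 0.0436 and 0.0259). Plg, the plasminogen precursor made by liver, was the lowest, with -8.41, -8.75 and -8.59 (limma adjusted p = 1.45e-06, 1.17e-06 and 1.01e-06). Between regions the list had 1 call, in bladder against urethra, where 4.32% of all genes were called. Thbs2, a matrix protein that helps clear Mmp2, was higher in bladder than in urethra (2.88, SE 0.41, limma adjusted p = 0.00834).

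Of 20 tested matrix substrates, 1 was higher and 6 lower in bladder than in the reference, 0 and 7 in urethra, and 0 and 5 in urogenital sinus. The shares of all genes were 5.82% and 11.2%, 4.36% and 8.86%, and 4.62% and 9.18%. The medians were -0.82, -1.86 and -1.32, against -0.27, 0.06 and -0.01 over all genes. Genes of cartilage and nervous tissue were among the lower ones. Reln, a glycoprotein that guides migrating neurons, differed by -4.76, -5.11 and -2.97 (limma adjusted p = 0.00224, 0.00166 and 0.0256). Col2a1, the collagen of cartilage, differed by -6.22, -3.12 and -4.65, and Bcan, a brain proteoglycan, by -5.24, -4.11 and -5.12 (limma adjusted p from 6.56e-05 to 0.00645). Vcan, the versican that Adamts20, Adamts9 and Adamts5 cut, went the other way. It was 1.23 higher in bladder (SE 0.37, limma adjusted p = 0.0481), and the differences of 1.06 in urethra (SE 0.37, limma adjusted p = 0.0957) and 1.16 in urogenital sinus (SE 0.36, limma adjusted p = 0.0606) did not pass the test. Between regions only bladder against urethra had calls, 2 substrates higher and 2 lower, against 1.71% and 2.61% of all genes. Bladder exceeded urethra in Hapln1, which links proteoglycans to hyaluronan (2.06, SE 0.42, limma adjusted p = 0.0288), and in Bgn (1.54, SE 0.37, limma adjusted p = 0.0494). It was lower than urethra in Tnc, the tenascin of growing mesenchyme (-2.78, SE 0.47, limma adjusted p = 0.0161), and in Col2a1 (-3.09, SE 0.42, limma adjusted p = 0.00693).

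The sample titles follow 3 formats, each with 1 newborn reference array, and the labels do not say whether a format marks a batch. All urethra arrays share a format that no other region has, so for urethra against the other regions format and region cannot be told apart. Within a format, Adamts20 exceeded its reference array by 4.72 (2 arrays) and 6.35 (1 array) in bladder, 6.94 in urethra (3 arrays), and 5.26 (3 arrays) and 6.36 (1 array) in urogenital sinus. On floored values, which set the size, Mmp13 differed by -7.36 to -6.24 and Mmp20 by -3.20 and -2.20 in bladder. Adamts6 exceeded it by 3.31 to 4.47, and Timp4 differed by -4.32 to -2.50. Adamts9 differed by 2.07 and 2.07 in bladder, and Mmp11 by 2.80 in urethra and 1.63 and 2.01 in urogenital sinus. Mmp9 differed by -1.21 and -0.72 in bladder, -3.98 in urethra, and -3.51 and -3.59 in urogenital sinus. With the format as a block, Mmp9 in bladder exceeded urogenital sinus by 2.47 (limma adjusted p = 0.00545), while its difference from urethra of 2.95 was no longer called (limma adjusted p = 0.119), nor was any other member in bladder against urethra. In that fit the urethra's format is shared only with newborn reference replicate 3, so the urethra differences from other regions rest on that array.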

How the data were processed

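Per the labels' protocols, RNA of microdissected tissue went through 2 rounds of amplification and biotin labelling before hybridization. The authors deposited a single table of linear intensity, with 45101 probe sets, and GCOS, the Affymetrix array software, is named in the submitters' processing notes. How the scans became this table was not given in the sources used here. Each array's deposited intensity had the same 2% trimmed mean, 1500 (largest difference 0.000137%), and no further scaling was done. Because 2 rounds of amplification shorten transcripts towards the 3′ end, probe sets far from that end can lose signal.

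The floor was the 20th percentile of all values, followed by log2 transformation. Control probe sets (64) were set aside, and genes were named from the 34945 probe sets with 1 platform symbol (932 had several, 9160 none). All 37 members matched RefSeq by Entrez identifier. A gene was represented by its brightest probe set on average and was tested if that set passed the 40th percentile on at least 3 of 13 arrays. The software was limma 3.58.1 under R 4.3.3, with lmFit and eBayes (intensity trend, 7 residual and 2.83 prior degrees of freedom) over all 15006 genes. P-values were two-sided with Benjamini-Hochberg adjustment across these genes, and calls were made under 0.05.

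Groups came from the labelled tissue. Adamts20, members called between regions, up to 6 called members in each direction against the reference and the 3 Mmp or Timp members with the highest mean over the 10 region arrays were to be given in full. The members and lists were chosen with earlier results of these data known. Alternatives varied the floor, filter, normalization, probe set choice, model and arrays. Detection calls were not analysed here.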

Additional observations from a re-analysis of the deposited data

How the results depend on the processing

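The Adamts20 calls against the newborn reference held under the alternatives run, while calls between regions depended on single arrays. The labels do not say that replicate numbers pair samples, and of 7 pairs with the same number 5, not all, had deviations that correlated above 0.1 (range -0.17 to 0.36), with 1 of 8 arrays closest to its own number, so the numbers were not used as pairs. With the replicate number as a block, 0 members were called for bladder against urogenital sinus and 0 for bladder against urethra (Mmp9 2.34 and 2.26, limma adjusted p = 0.0829 and 0.0763). Of all 15006 genes, 132 and 140 were called. The block could not be fitted for the reference or for stage. With array weights, the members called were 12 for bladder, 10 for urethra and 13 for urogenital sinus against the reference, 8 for bladder against urogenital sinus, 8 for bladder against urethra, 2 for urethra against urogenital sinus and 1 for stage. Of all 15006 genes that setting called 5791, 3863 and 5272 against the reference. It called 2667, 1870, 660 and 1421 in the other comparisons, in the same order. With the 3 reference arrays entered singly, the members called were 12, 10 and 11, against 5388, 4192 and 4322 of all genes. With the title format as a block, 10 members were called for bladder and 10 for urethra against the reference (all genes: 4245 and 2993). The block fit also enters the 3 reference arrays singly, so the 2 changes cannot be told apart in these counts. In that fit 2 were called for bladder against urogenital sinus and 0 for bladder against urethra (all genes: 467 and 55). Adamts20 was then -1.51 in bladder minus urethra and turned to 1.16 in urethra minus urogenital sinus. Both values rest on newborn reference replicate 3, the only other array with the urethra's format. Bladder against urethra gave 1 with the floor at the 40th percentile and 1 with no filter (all genes: 579 of 15006 and 493 of 18193). Bladder against urogenital sinus gave 2 with at least 6 arrays above the filter level and 3 with arrays centred on their medians (all genes: 490 of 13195 and 304 of 15006). Centring turned Adamts20 to 0.30 for bladder minus urethra and 0.22 for bladder minus urogenital sinus, and leaving out 1 array gave -0.33 to 0.01 for bladder minus urethra, none of them called. Leaving out 1 array gave 5 to 8 calls for bladder, 6 to 7 for urethra and 5 to 8 for urogenital sinus against the reference, 0 to 2 for bladder against urogenital sinus, 0 to 5 for bladder against urethra, and 0 for urethra against urogenital sinus and for stage. Over all genes the counts ran from 1771 to 3407, 1572 to 2520 and 1634 to 2727 against the reference. They ran from 46 to 645, 97 to 1290, 0 to 22 and 0 to 3 in the other comparisons, in the same order. The cause of these changes was not tested. Of all genes, bladder against the reference called 5791 with array weights, 5388 with single reference arrays and 1622 with at least 6 arrays above the filter level, against 2552 as reported. Values near the floor have no order, which limits Mmp13, Mmp20, Mmp7, Adamts6, Adamts8, Adamts18 and Timp4, and Adamts20 in the reference.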
